A study of Mus musculus with 6 samples.

Results

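The 36 genes described here encode the machinery of autophagy, and were taken by symbol from the deposited table of 34745 genes, in which every one of the 36 symbols named a single gene. All 36 passed the filter on low counts, so none was left untested. The libraries came from mouse T helper cells. Naive CD4 T cells were taken from the spleens of female C57BL/6 mice, 6 weeks of age, activated with plate-bound antibodies to CD28 and CD3 and kept for 4 days in a Th17 polarising medium, which held the cytokines TGF-beta, IL-2, IL-6 and IL-23 and blocking antibodies to IL-4 and IFN-gamma. One group of 3 libraries received PM2.5, a suspension of fine airborne particles, at 100 µg/ml added 6 hours after stimulation, and the other group of 3 received PBS as a mock at that point. All cultures in both groups carried the same stimulation and polarising mixture, and the labels do not say whether the 3 libraries of a group came from separate animals, separate cultures or pooled cells. The p-values therefore measure the spread between these libraries, which may be technical.

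Autophagy is the process by which a cell wraps a portion of its cytoplasm in a double membrane, the autophagosome, and delivers it to the lysosome for breakdown and reuse. A protein kinase complex built around Ulk1 or Ulk2 starts the process, a lipid kinase complex with Pik3c3 and Becn1 marks the membrane with a phosphoinositide, lipid transfer proteins and scramblases let the membrane grow, and a ubiquitin-like conjugation system attaches LC3 and GABARAP proteins to it, to which cargo receptors such as Sqstm1 bind. In T cells autophagy is known to remove mitochondria and endoplasmic reticulum and to supply metabolites after activation. The transcripts of these genes are not a measure of autophagic flux, which depends on lipidation and lysosomal turnover of the proteins.

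The PBS libraries held 19511561 to 22353131 counts and the PM2.5 libraries 25397965 to 27215853, so every PM2.5 library was deeper. Together the members took 0.243 to 0.246% of the counts of a PBS library and 0.267 to 0.271% of a PM2.5 library. Mitochondrial genes took 4.76 to 5.14% of the counts in PBS and 4.18 to 4.30% in PM2.5. The labelled cell type was checked against its markers. All 8 T cell markers were present, with a summed level of 2870 to 2905 CPM (CPM is a gene's count scaled to the TMM-adjusted library total) in the PBS group and 2383 to 2413 CPM in the PM2.5 group, and the 6 Th17 markers summed to 3477 to 3558 and 2620 to 3104 CPM. Markers of other cells were low: the sums of 5 B cell markers were 1.01 to 1.65 against 0.241 to 0.451 CPM, of 7 macrophage and monocyte markers 4.83 to 6.18 against 3.01 to 3.56 CPM, of 6 neutrophil markers 5.19 to 6.14 against 0.563 to 0.705 CPM, of 4 NK cell markers 3.09 to 3.31 against 0.826 to 1.10 CPM and of 4 erythroid markers at most 0.133 against 0 CPM. Sums of 6 dendritic cell markers (0.928 to 1.26 against 2.62 to 3.58 CPM) and of 3 CD8 T cell markers (14.4 to 15.9 against 27.2 to 29.7 CPM) went the other way. The dendritic cell sum rose through Zbtb46 (from a mean of 0.455 to 2.68 CPM) while Itgax fell 2.26-fold. The CD8 sum rose mainly through Crtam (4.57 to 19.1 CPM). Of the other CD8 markers, Cd8b1 rose 1.46-fold (4.16 to 6.09 CPM) and Cd8a fell 1.81-fold. Within the lower T cell sum, 6 markers fell and Cd28 and Cd247 rose 1.51-fold and 1.39-fold. In these lists 1 B cell marker (Ms4a1), 1 macrophage marker (Lyz2), 4 neutrophil markers, 2 dendritic cell, 2 NK cell and 3 erythroid markers had 0 counts in every library. These marker sums moved with the treatment, and their part in the autophagy genes was not tested. In bulk RNA, fewer cells of a type and less RNA per cell cannot be told apart.

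In the PM2.5 group 20 of the 36 autophagy genes rose and 8 fell, while the other 8 did not pass an adjusted p of 0.05 (edgeR's quasi-likelihood test, Benjamini-Hochberg adjustment over all 12967 genes tested). The treatment changed most transcripts: 70.6% of all genes tested passed, 35.2% higher and 35.3% lower. Against this background 77.8% of the members passed, 55.6% higher and 22.2% lower. Log2 fold changes of the members ran from -1.02 to 0.84 with a median of 0.18, beside a median of -0.01 over all genes tested. Sizes were modest, with a median absolute log2 fold change of 0.30 for the members and 0.43 over all genes tested. Of the members, 6 rose by at least 1.5-fold (16.7%, against 15.3% of all genes) and 3 fell by that much (8.33%, against 20.3%). The values of both groups did not overlap for 27 members, 75.0%, against 74.9% of all genes tested; 20 of them lay higher in PM2.5 and 7 lower, against 37.4% of all genes in each direction. Without PM2.5 replicate 2, Atg7, Atg4a and Map1lc3a no longer passed and 5 members were called lower.

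**Figure D1:**
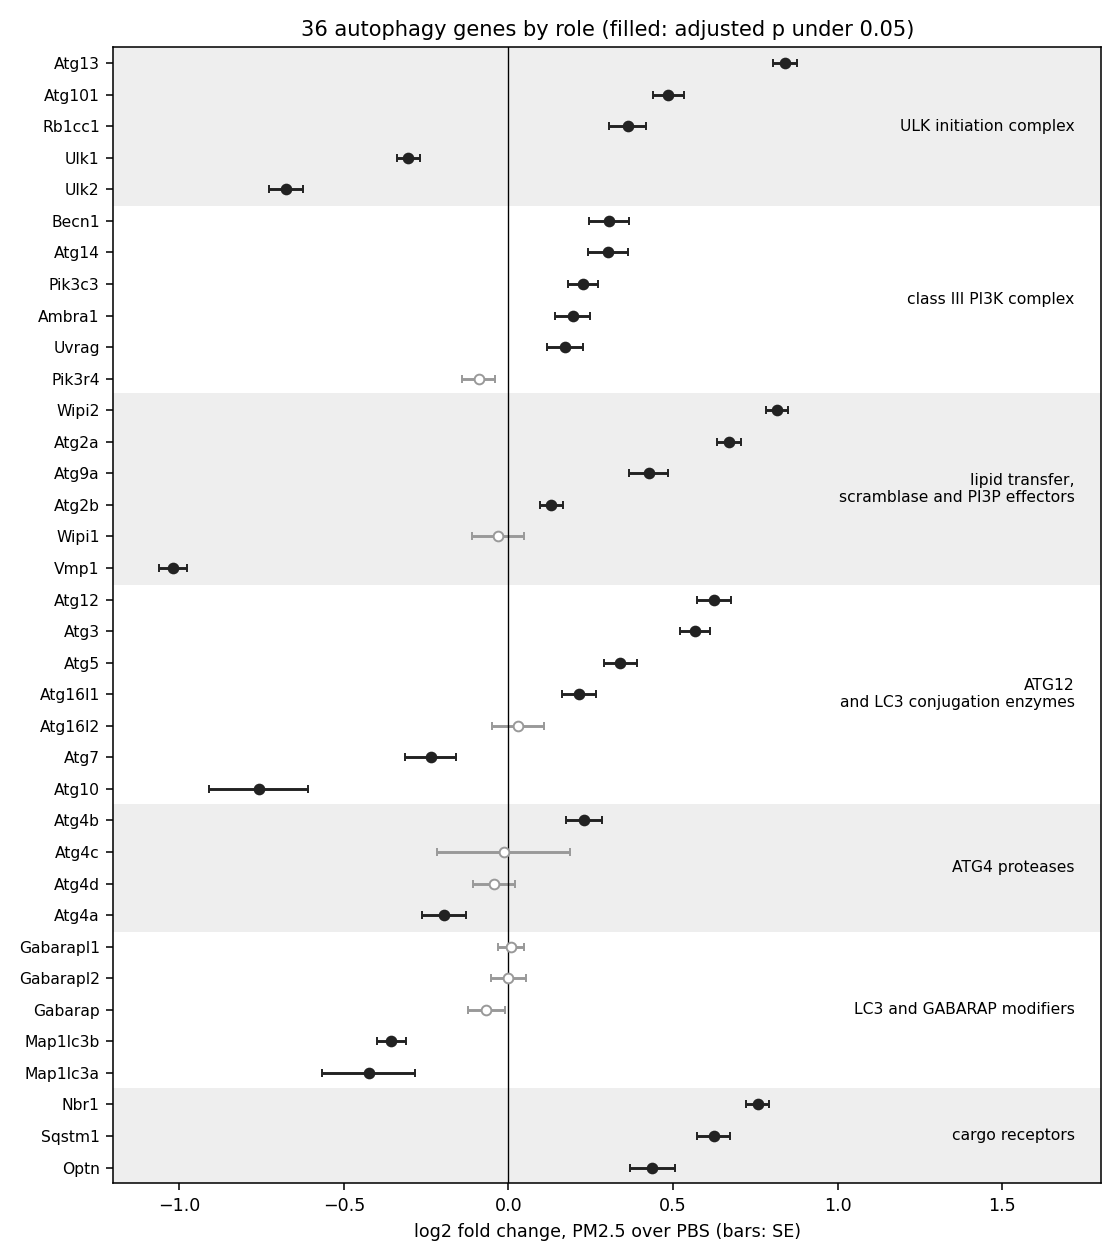
Log2 fold change of PM2.5 over PBS (x axis) with its SE for each of the 36 genes, grouped by role; filled points passed an adjusted p of 0.05. The 3 cargo receptors lie to the right of 0, no LC3 or GABARAP gene does so with a filled point, and Vmp1 lies farthest to the left at -1.02.

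The ULK complex, which receives nutrient signals from mTORC1 and AMPK, was split between its kinases and its other subunits. Both kinase genes fell and all 3 genes of non-kinase subunits rose, where 35.2% of all genes tested were higher and 35.3% lower. Atg13, the adaptor that holds the kinase in the complex (ENSMUSG00000027244, mm10 chromosome 2, 91674618 to 91710576, minus strand), had 70.9, 71.3 and 70.7 CPM in the PBS libraries and 123, 128 and 130.3 CPM in the PM2.5 libraries. All PM2.5 libraries lay above all PBS libraries, and this rise of 1.79-fold was the largest of the 36 genes (log2 fold change 0.84, SE 0.04, adjusted p = 9.96e-09). Its binding partner Atg101 rose from 33.8 ± 0.910 to 47.4 ± 1.17 CPM (SD, n = 3; 1.40-fold, adjusted p = 7.00e-06), and the scaffold Rb1cc1, also called FIP200, from 54.1 ± 3.08 to 69.6 ± 3.32 CPM (1.28-fold, adjusted p = 1.68e-04). Ulk2 (ENSMUSG00000004798, mm10 chromosome 11, 61775649 to 61855073, minus strand) had 92.7, 92.7 and 86.6 CPM in the PBS libraries and 60.4, 55.7 and 54.0 CPM in the PM2.5 libraries. Its groups did not overlap, and it fell 1.6-fold (log2 fold change -0.68, SE 0.05, adjusted p = 8.44e-07). Ulk1 (ENSMUSG00000029512, mm10 chromosome 5, 110784488 to 110810097, minus strand), the kinase most studied in starvation-induced autophagy, had 156, 165 and 164 CPM in the PBS libraries and 130.3, 133 and 129.6 CPM in the PM2.5 libraries. It too fell without overlap, by 1.23-fold (log2 fold change -0.30, SE 0.03, adjusted p = 1.99e-05).

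Promoters were read from RefSeq (GRCm38.p6, the assembly of mm10), which gave 35 start sites for 30 of the 36 members. Atg12, Atg16l1, Becn1, Map1lc3a, Pik3c3 and Rb1cc1 had no entry. For 26 of the 35, the bases shortly after the start were found in a GENCODE M21 transcript of the gene. Start sites here are those of RefSeq and can differ from GENCODE M21. The 250 bases before each start were searched on both strands for the antioxidant response element TGACNNNGC, the E-box CACGTG, the CLEAR element TCACGTGA, which contains that E-box, the C/EBP-ATF response element TGATGNAA, the FOXO element GTAAACA and the GC box GGGCGG. TGACNNNGC was found for 3 members, Atg13, Ulk2 and Vmp1 (5 of the 35 windows), and in 10.2% of all 32851 RefSeq windows of this length. The windows of Atg13, the member with the largest rise, and of Ulk2, whose transcript fell, are shown 5′ to 3′ on the strand of the gene with this match in capitals; neither overlaps an annotated exon. A match describes letters and is no measure of binding.
Atg13, chr2:91710593-91710842, minus strand: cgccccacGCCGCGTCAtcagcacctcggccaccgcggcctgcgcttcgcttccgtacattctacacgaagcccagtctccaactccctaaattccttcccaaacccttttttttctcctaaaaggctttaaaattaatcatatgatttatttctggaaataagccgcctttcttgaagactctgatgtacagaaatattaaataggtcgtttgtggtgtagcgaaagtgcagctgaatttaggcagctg
Ulk2, chr11:61855093-61855342, minus strand: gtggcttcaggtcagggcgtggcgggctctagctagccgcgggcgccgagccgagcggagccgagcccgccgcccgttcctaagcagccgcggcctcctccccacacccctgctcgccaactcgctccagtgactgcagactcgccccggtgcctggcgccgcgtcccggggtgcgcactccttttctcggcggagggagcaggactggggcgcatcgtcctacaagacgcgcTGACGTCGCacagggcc
The match stands near the far end of the window in Atg13 and next to the start site in Ulk2, and the GC content of these windows was 46.4% and 72.8%, against a median of 59.2% for the members and 52.4% for all windows.

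**Figure D2:**
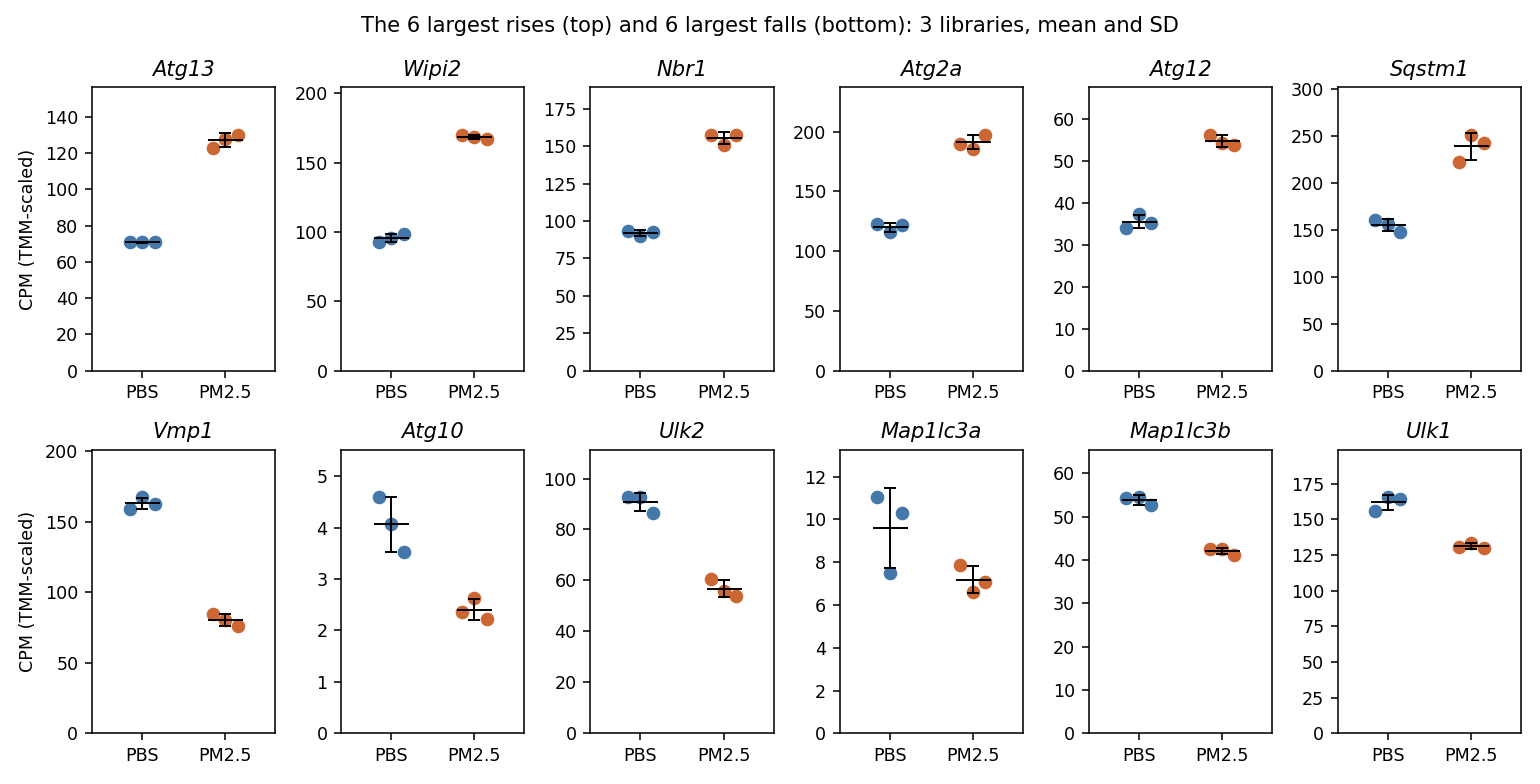
CPM (y axis, TMM-scaled, from 0) of each library for the 6 genes with the largest rises, top, and the 6 with the largest falls, bottom; black lines are means with SD, n = 3. The groups stand apart in 11 of the 12 panels. In Map1lc3a, PBS replicate 2 (7.50 CPM) lies within the PM2.5 values. The panels were picked by size of change among members that passed, and groups stand apart for 74.9% of all genes tested.

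Of the 6 genes of the class III phosphatidylinositol 3-kinase complex, 5 were called higher and none lower. Among all genes tested 35.2% were higher and 35.3% lower. The fold changes that passed were small, at 1.13-fold to 1.24-fold. Becn1, the Beclin 1 scaffold that Bcl2 family proteins can bind (ENSMUSG00000035086, mm10 chromosome 11, 101285952 to 101302286, minus strand), had 86.8, 82.2 and 96.9 CPM in the PBS libraries and 114, 105 and 110.0 CPM in the PM2.5 libraries. These groups did not overlap (log2 fold change 0.30, with SE 0.06 and adjusted p = 0.00158). Atg14, which directs the complex to the site of autophagosome formation, rose from 20.0 ± 0.775 to 24.6 ± 0.600 CPM (1.23-fold; log2 fold change 0.30, SE 0.06, adjusted p = 0.00118). The catalytic subunit Pik3c3 rose from 63.3 ± 2.90 to 74.1 ± 2.04 CPM (1.17-fold, adjusted p = 0.00125). Ambra1, a regulator of Becn1, had a log2 fold change of 0.19 (adjusted p = 0.00778), and Uvrag, which replaces Atg14 in another form of the complex, one of 0.17 (adjusted p = 0.0176). Both rises were lost with library totals, with limma on either scale of FPKM and under a filter at 5 CPM. Over these 4 alternatives the log2 fold change of Ambra1 was 0.12 to 0.13 (adjusted p = 0.0519 to 0.0955) and that of Uvrag 0.10 to 0.11 (adjusted p = 0.0858 to 0.105). Library totals are a scaling that moved the median of all genes from -0.01 to -0.07. Uvrag also missed the threshold without PBS replicate 1 (adjusted p = 0.0659), PBS replicate 3 (0.0646) or PM2.5 replicate 1 (0.0534). Pik3r4, the regulatory subunit, had 67.9, 71.4 and 69.8 CPM in the PBS libraries and 63.9, 62.6 and 69.8 CPM in the PM2.5 libraries, with overlapping groups (log2 fold change -0.09, SE 0.05, adjusted p = 0.128). It passed as lower in 5 of the 14 alternatives, and its log2 fold change over all 14 was -0.16 to -0.06. Those 5 include library totals (-0.15, adjusted p = 0.0174) and the fit without PM2.5 replicate 3 (-0.13, adjusted p = 0.0327).

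Genes that act in the growth of the membrane held the largest fall of the 36, that of Vmp1, and 2 of the 6 largest rises, those of Wipi2 and Atg2a. Vmp1, a scramblase of the endoplasmic reticulum needed for autophagosome formation (ENSMUSG00000018171, mm10 chromosome 11, 86583865 to 86683836, minus strand), had 159, 167 and 162 CPM in the PBS libraries and 84.4, 80.3 and 76.2 CPM in the PM2.5 libraries. Each PM2.5 library held about the same low level, and the gene fell 2.03-fold (log2 fold change -1.02, SE 0.04, adjusted p = 8.66e-09). The annotated microRNA gene Mir21a lies in an exon of Vmp1 on the same strand, with 92 shared bases. Wipi2, which reads the phosphoinositide mark and recruits Atg16l1 (ENSMUSG00000029578, mm10 chromosome 5, 142627698 to 142670588, plus strand), had 92.9, 95.7 and 98.9 CPM in the PBS libraries and 170.4, 169 and 167 CPM in the PM2.5 libraries. It rose 1.76-fold without overlap (log2 fold change 0.82, SE 0.03, adjusted p = 9.14e-09). Its relative Wipi1 was lower in level and had 12.3, 11.1 and 11.6 CPM in the PBS libraries and 11.4, 10.9 and 12 CPM in the PM2.5 libraries, with overlapping groups (log2 fold change -0.03, 95% interval -0.21 to 0.14).

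Atg2a, a lipid transfer protein that channels lipids into the growing membrane (ENSMUSG00000024773, mm10 chromosome 19, 6241668 to 6262335, plus strand), had 123, 116 and 122 CPM in the PBS libraries and 189.8, 186 and 198 CPM in the PM2.5 libraries. All PM2.5 values were above all PBS values, a rise of 1.59-fold (log2 fold change 0.67, SE 0.04, adjusted p = 7.85e-08). The related Atg2b had a log2 fold change of 0.13 (adjusted p = 0.00764). This small rise kept its call in only 10 of the 14 alternatives (log2 fold change 0.06 to 0.15). Library totals were among those that lost it (0.07, adjusted p = 0.124). Atg9a, the scramblase carried on the vesicles that seed the membrane, rose from 57.1 ± 2.38 to 76.7 ± 5.76 CPM (1.34-fold, adjusted p = 8.24e-05). RefSeq gives Vmp1 3 start sites, and each of their windows held TGACNNNGC. The part of the middle window that lies in an intron is shown because Vmp1 is the member with the largest fall; capitals mark the match.
Vmp1, chr11:86683524-86683739, minus strand: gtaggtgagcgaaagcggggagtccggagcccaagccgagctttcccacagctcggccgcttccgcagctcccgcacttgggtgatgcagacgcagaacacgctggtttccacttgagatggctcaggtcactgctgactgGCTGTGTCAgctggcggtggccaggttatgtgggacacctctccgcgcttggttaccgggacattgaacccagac
With Atg13 and Ulk2, the 3 members that hold this motif comprise 1 that rose and 2 that fell.

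Of the 7 genes of the conjugation system, which joins Atg12 to Atg5 and LC3 to lipid, 4 rose, 2 fell and 1 did not pass. That is 57.1% higher and 28.6% lower, beside 35.2% and 35.3% of all genes tested. Atg12, the ubiquitin-like protein itself (ENSMUSG00000032905, mm10 chromosome 18, 46732417 to 46741579, minus strand), had 34.0, 37.3 and 35.3 CPM in the PBS libraries and 56.2, 54.2 and 53.7 CPM in the PM2.5 libraries. It rose 1.54-fold without overlap (log2 fold change 0.62, SE 0.05, adjusted p = 1.46e-06). Atg3, the E2-like enzyme that transfers LC3 (ENSMUSG00000022663, mm10 chromosome 16, 45158785 to 45188538, plus strand), had 45.8, 47.3 and 48.0 CPM in the PBS libraries and 70.5, 71.5 and 66.9 CPM in the PM2.5 libraries, and its groups did not overlap (1.48-fold; log2 fold change 0.57, SE 0.05, adjusted p = 1.23e-06). Atg5, the acceptor of Atg12, rose from 34.8 ± 1.5 to 44.0 ± 0.354 CPM (1.27-fold, adjusted p = 1.41e-04). Atg16l1, which places the Atg12-Atg5 conjugate on the membrane, had a log2 fold change of 0.21 (adjusted p = 0.00378). This rise kept its call in 12 of the 14 alternatives. Limma on log2(FPKM + 1) was among those that lost it (0.11, adjusted p = 0.0665).

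Of the enzymes of this system, Atg10 and Atg7 were called lower, unlike Atg3. Atg10, the E2-like enzyme that transfers Atg12, was a scarce transcript (ENSMUSG00000021619, mm10 chromosome 13, 90935349 to 91223987, minus strand) and had 4.59, 4.08 and 3.53 CPM in the PBS libraries and 2.37, 2.62 and 2.21 CPM in the PM2.5 libraries. With 55 to 104 counts in a library it fell 1.69-fold without overlap (log2 fold change -0.76, SE 0.15, adjusted p = 0.00111). Atg7, the E1-like enzyme that activates both Atg12 and LC3 (ENSMUSG00000030314, mm10 chromosome 6, 114643097 to 114860614, plus strand), had 27.4, 26.3 and 26.9 CPM in the PBS libraries and 23.4, 20.3 and 24.8 CPM in the PM2.5 libraries. The PM2.5 values were lower but close to the PBS values (log2 fold change -0.24, SE 0.08, adjusted p = 0.0181), and the call was lost with DESeq2 (adjusted p = 0.0511) and without PM2.5 replicate 2 (adjusted p = 0.0651). Atg16l2, a relative of Atg16l1, had 30.4, 25.4 and 29.0 CPM in the PBS libraries and 27.8, 27.6 and 31.2 CPM in the PM2.5 libraries, and its groups overlapped (log2 fold change 0.03, 95% interval -0.15 to 0.20).

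Atg3, Atg5 and Atg7 were the members whose windows held the E-box CACGTG, found in 6.02% of all windows, and the Atg3 window was the one with the CLEAR element TCACGTGA, found in 0.785% of all windows. They are shown because these 3 members of one system carry the motif while Atg3 and Atg5 rose and Atg7 fell. Of the Atg3 window, 78 bases lie between the first exon of the divergent gene Slc35a5 and that of Atg3, and only these are shown; the Atg7 window lies in an intron of the deposited gene. Capitals mark the E-boxes, and in Atg3 also the CLEAR element.
Atg3, chr16:45158707-45158784, plus strand: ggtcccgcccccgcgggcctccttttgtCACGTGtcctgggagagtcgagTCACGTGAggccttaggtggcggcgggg
Atg5, chr10:44268089-44268338, plus strand: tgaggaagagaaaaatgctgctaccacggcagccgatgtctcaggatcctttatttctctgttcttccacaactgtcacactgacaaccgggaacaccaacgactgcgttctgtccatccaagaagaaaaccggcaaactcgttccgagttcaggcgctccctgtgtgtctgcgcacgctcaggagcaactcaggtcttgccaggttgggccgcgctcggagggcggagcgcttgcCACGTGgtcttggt
Atg7, chr6:114670846-114671095, plus strand: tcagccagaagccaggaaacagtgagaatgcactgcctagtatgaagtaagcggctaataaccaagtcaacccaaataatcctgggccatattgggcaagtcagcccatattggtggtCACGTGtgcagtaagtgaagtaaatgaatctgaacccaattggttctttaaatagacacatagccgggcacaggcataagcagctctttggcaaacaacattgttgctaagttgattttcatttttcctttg
Atg3 carries the motif at 2 places in these bases, Atg5 close to its start site and Atg7 in the middle of the window.

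The ATG4 proteases, which trim LC3 and GABARAP proteins before conjugation and remove them from lipid later, held 1 gene that rose, 1 that fell and 2 that did not pass, with a median log2 fold change of -0.03. Atg4b, the most active family member on LC3, had 56.0, 59.1 and 53.2 CPM in the PBS libraries and 61.9, 66.8 and 68.5 CPM in the PM2.5 libraries. It rose 1.17-fold without overlap (adjusted p = 0.00366). Atg4a had 26.1, 25.9 and 24.0 CPM in the PBS libraries and 23.5, 21.3 and 21.6 CPM in the PM2.5 libraries. It fell 1.15-fold (adjusted p = 0.0218), a call that ended with DESeq2 (adjusted p = 0.103) and without PBS replicate 1 or 2 or PM2.5 replicate 2 or 3 (adjusted p = 0.0664, 0.0579, 0.0802 and 0.0747). Atg4c and Atg4d had log2 fold changes of -0.01 (95% interval -0.47 to 0.44) and -0.04 (95% interval -0.18 to 0.10) and did not pass. Atg4c was scarce, at 2.15 CPM in PBS, and Atg4d shares 792 exon bases with Kri1 on the opposite strand, a gene with a mean of 2848 counts against 738 for Atg4d, so its value is uncertain.

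None of the 5 genes of the LC3 and GABARAP proteins rose, 2 fell and 3 did not pass. Map1lc3b, which encodes the LC3B protein used as the common marker of autophagosomes (ENSMUSG00000031812, mm10 chromosome 8, 121590361 to 121598760, plus strand), had 54.3, 54.5 and 52.6 CPM in the PBS libraries and 42.4, 42.4 and 41.2 CPM in the PM2.5 libraries. The groups were clearly separate, and the gene fell 1.28-fold (log2 fold change -0.36, SE 0.04, adjusted p = 3.72e-05). Map1lc3a (ENSMUSG00000027602, mm10 chromosome 2, 155276297 to 155278073, plus strand), which encodes LC3A, had 11, 7.50 and 10.3 CPM in the PBS libraries and 7.85, 6.62 and 7.08 CPM in the PM2.5 libraries. PBS replicate 2 lay among the PM2.5 values, and the fall of 1.34-fold (log2 fold change -0.42, SE 0.14, adjusted p = 0.0225) was lost without PBS replicate 1 or 3 or PM2.5 replicate 2 or 3 (adjusted p = 0.0867, 0.0768, 0.080 and 0.0701).

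None of the 3 GABARAP genes passed the test. Gabarap (ENSMUSG00000018567, mm10 chromosome 11, 69991143 to 69994951, plus strand) had 200.2, 222 and 220.2 CPM in the PBS libraries and 191, 217 and 206 CPM in the PM2.5 libraries, and the groups overlapped (log2 fold change -0.07, 95% interval -0.20 to 0.06, adjusted p = 0.311). Gabarapl1 (ENSMUSG00000030161, mm10 chromosome 6, 129533160 to 129542346, plus strand) had 90.1, 85.0 and 86.6 CPM in the PBS libraries and 85.5, 87.4 and 90.1 CPM in the PM2.5 libraries (log2 fold change 0.01, 95% interval -0.08 to 0.10). Gabarapl2, also known as GATE-16 (ENSMUSG00000031950, mm10 chromosome 8, 111940703 to 111953612, plus strand), had 36.6, 35.0 and 38.4 CPM in the PBS libraries and 37.7, 36.5 and 35.8 CPM in the PM2.5 libraries (log2 fold change -0.00052, 95% interval -0.12 to 0.12). In all 3 genes the values of both groups overlapped.

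To compare levels between genes, CPM were divided by the merged exon length of each gene in GENCODE M21. The deposited FPKM were not used for this because their implied gene length equals the summed length of all distinct exons, with overlapping exons counted repeatedly, to within 0.1% for 68.1% of 12921 genes and for 25 of the 36 members. Gabarap stood highest of all 36 members in both groups, at 116 ± 6.62 CPM per kb in PBS and 111 ± 7.07 in PM2.5. In PBS it was followed by Sqstm1 (46.2 ± 2.00), Gabarapl1 (43.3 ± 1.31) and Vmp1 (42.2 ± 1.07), and the mean ± SD of neighbours among these 3 overlapped. In the PM2.5 group Sqstm1 stood at 71.2 ± 4.38, Gabarapl1 at 43.6 ± 1.14 and Vmp1 at 20.8 ± 1.05 CPM per kb. Within the LC3 and GABARAP family, Gabarap made up 60.9% ± 2.28 of the summed level per kb in PBS and 60.9% ± 1.62 in PM2.5, Gabarapl1 22.7% ± 1.18 and 24.0% ± 0.744, and Map1lc3b 3.76% ± 0.152 and 3.08% ± 0.136. The order of levels depends on the length used, and neither length is certain. Atg12, Atg4d, Uvrag and Atg101 have other coordinates in GENCODE M21 than in the deposited table. Their deposited lengths were 2492, 2541, 3438 and 1230 bases, against merged lengths of 7711, 7264, 9035 and 1597 bases. Their levels per kb may therefore be too low. By deposited FPKM, Gabarap in PBS was followed by Atg101 (28.1 ± 0.709), Gabarapl1 (27.9 ± 0.881), Vmp1 (27.7 ± 0.636) and Sqstm1 (22.6 ± 0.902), while Atg101 ranked 6 per kb. The mean order of Map1lc3a and Map1lc3b also changed: per kb of merged exons Map1lc3a stood at 8.15 ± 1.58 and Map1lc3b at 7.16 ± 0.142 in PBS, while the deposited FPKM were 3.89 ± 0.766 and 5.20 ± 0.079.

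**Figure D3:**
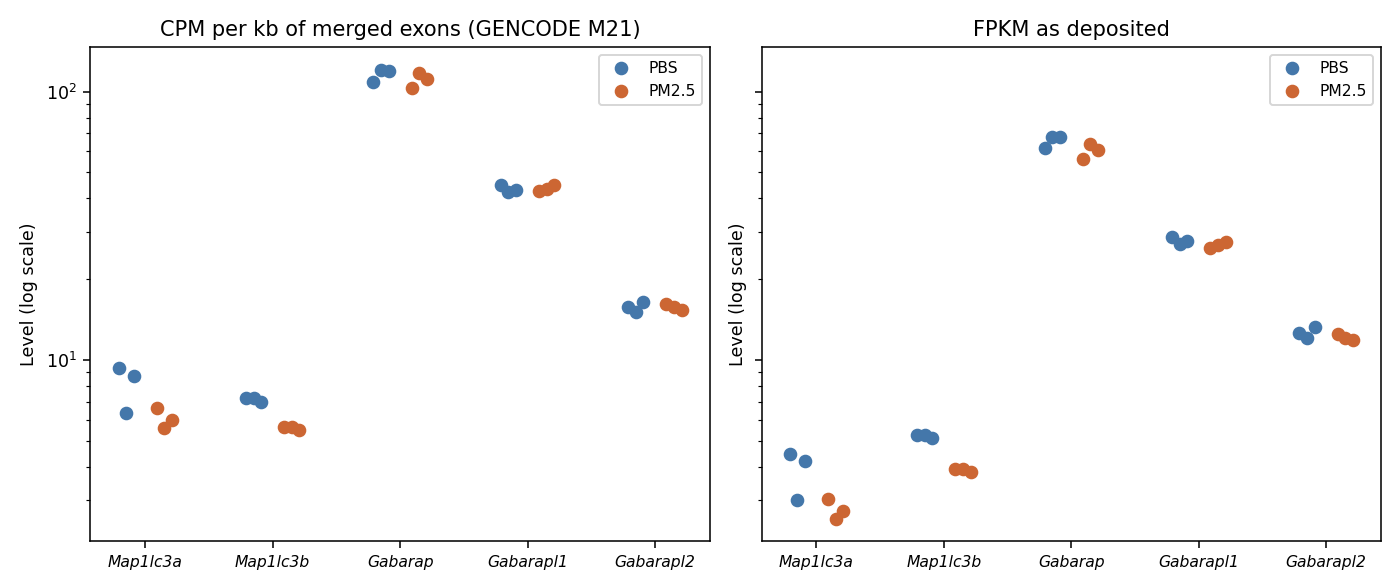
Level of the 5 LC3 and GABARAP genes in each library (points) on a log scale, as CPM per kb of merged exons, left, and as deposited FPKM, right. Gabarap is highest and the pair of Map1lc3 genes lowest on both scales, and in PBS replicates 1 and 3 Map1lc3a lies above Map1lc3b per kb and below it as FPKM, while in PBS replicate 2 it lies below on both.

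All 3 cargo receptor genes rose. A list of 3 is small, and 35.2% of all genes tested were higher. Sqstm1, which encodes p62, a receptor that binds ubiquitin and LC3 and is itself degraded by autophagy (ENSMUSG00000015837, mm10 chromosome 11, 50199366 to 50210827, minus strand), had 161, 156 and 148 CPM in the PBS libraries and 223, 251 and 242 CPM in the PM2.5 libraries. The lowest PM2.5 library was well above the highest PBS library, a rise of 1.54-fold (log2 fold change 0.62, SE 0.05, adjusted p = 1.78e-06). Nbr1, a receptor that works with p62 (ENSMUSG00000017119, mm10 chromosome 11, 101552149 to 101581951, plus strand), had 93.1, 89.8 and 92.9 CPM in the PBS libraries and 158, 151 and 158 CPM in the PM2.5 libraries. It rose 1.69-fold without overlap (log2 fold change 0.76, SE 0.04, adjusted p = 1.79e-08). Optn, the optineurin receptor known from the clearance of mitochondria and bacteria (ENSMUSG00000026672, mm10 chromosome 2, 5020642 to 5064051, minus strand), was less abundant, with 18.6, 17.0 and 16.5 CPM in the PBS libraries and 23.3, 22.9 and 24.5 CPM in the PM2.5 libraries. It rose 1.35-fold, again without overlap (log2 fold change 0.44, SE 0.07, adjusted p = 2.23e-04).

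Several related genes differed in how they responded, which was followed as the ratio of their counts within each library, a quantity that no scaling between libraries touches. The 8 pairs were chosen after the values were seen. The ratio of Wipi2 to Wipi1 was 7.53, 8.60 and 8.51 in the PBS libraries and 14.9, 15.4 and 13.9 in the PM2.5 libraries, and that of Atg2a to Atg2b was 0.880, 0.786 and 0.828 in the PBS libraries and 1.22, 1.18 and 1.22 in the PM2.5 libraries. Atg2b therefore had more counts than Atg2a in each PBS library and fewer in each PM2.5 library. The ratio of Ulk1 to Ulk2 was 1.68, 1.78 and 1.89 in the PBS libraries and 2.16, 2.40 and 2.40 in the PM2.5 libraries, since Ulk2 fell more than Ulk1. Atg4b over Atg4a went from a mean log2 ratio of 1.15 ± 0.04 to 1.57 ± 0.15 (SD). In these 4 pairs the groups did not overlap, and each had p = 0.1 in the two-sided exact permutation test, the smallest that 3 against 3 libraries can give (0.2 after Benjamini-Hochberg adjustment over the 8 pairs). Groups of single genes did not overlap for 74.9% of all genes tested. How often the ratios of other gene pairs stand apart was not tested, so these counts cannot be read as particular to related genes. The ratios overlapped for Atg16l1 over Atg16l2, Map1lc3b over Map1lc3a, Gabarap over Gabarapl1 and Gabarapl1 over Gabarapl2, with differences in mean log2 ratio of 0.18, 0.05, -0.08 and 0.01 (exact permutation p = 0.3 to 0.9).

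**Figure D4:**
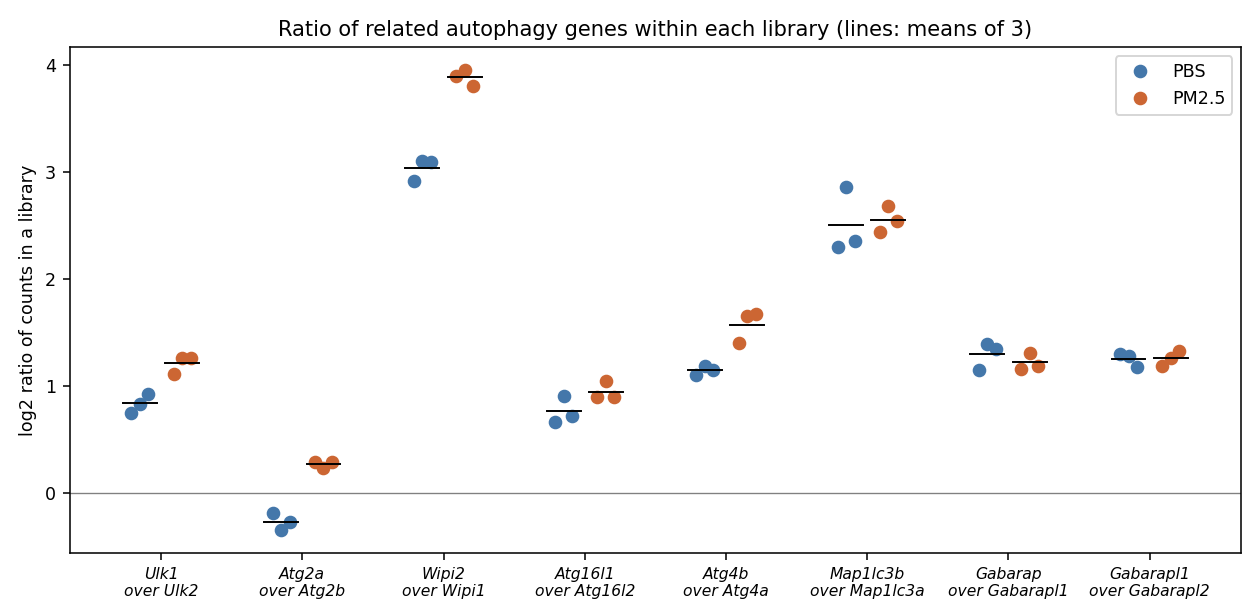
Log2 ratio of the counts of 2 related genes in each library (points) with the mean of each group (lines). The groups are apart for Ulk1 over Ulk2, Atg2a over Atg2b, Wipi2 over Wipi1 and Atg4b over Atg4a, and Atg2a over Atg2b crosses 0. The pairs were chosen after the values were seen.

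Genes that work beside the 36 were read from 4 lists with 66 genes, of which 64 were tested; 32 rose, 19 fell and 13 did not pass (median 0.15). That is 79.7% called, beside 70.6% of all genes tested (35.2% higher and 35.3% lower, median -0.01). Among 18 further selective receptors tested of 20, 8 rose and 5 fell (median 0.06). Tax1bp1, a ubiquitin-binding receptor related in function to p62, rose from 258 ± 12.7 to 370.0 ± 2.14 CPM (1.43-fold), Sec62, a receptor for endoplasmic reticulum, 1.6-fold and Nufip1, tied to ribosome turnover, 1.75-fold, while Retreg1, the endoplasmic reticulum receptor also called Fam134b, fell from 121 ± 4.52 to 77.1 ± 2.90 CPM (1.57-fold). Of 12 further phagophore genes 7 rose and 3 fell (median 0.22). The Wipi relatives Wdr45 (log2 fold change 0.73) and Wdr45b (log2 fold change 0.48) and Nrbf2, a partner of Atg14 (log2 fold change 0.55), rose, and Tbc1d14, a Rab regulator of autophagosome formation, fell 2.87-fold, from 168 ± 4.07 to 58.5 ± 0.345 CPM. Those 4 had adjusted p values of 9.83e-11 to 1.66e-05 in edgeR's test.

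Of the 14 genes for fusion of autophagosomes with lysosomes 5 rose (35.7%) and 6 fell (42.9%). Over all genes tested 35.2% were higher and 35.3% lower, so these shares lay near that background. Their median log2 fold change was -0.09 and the highest was 0.33. The 4 that passed most clearly all fell: Tecpr1, a tether that binds the Atg12-Atg5 conjugate (1.74-fold, from 124 ± 3.56 to 70.9 ± 0.358 CPM), the HOPS subunit Vps41 (1.43-fold), the adaptor Plekhm1 (1.35-fold) and the tether Epg5 (1.25-fold). Of 20 regulators 12 rose and 5 fell (median 0.35). Sesn2, a leucine sensor that restrains mTORC1, rose from 40.04 ± 1.05 to 192 ± 1.24 CPM (4.78-fold), and the Becn1-binding survival genes Bcl2 and Bcl2l1 rose 2.44-fold and 2.75-fold. Trp53inp2, which brings LC3 from the nucleus to autophagosomes, fell 1.94-fold. Among the transcription factors of this list, named after their values were seen, Tfe3 (0.38), Mitf (1.74) and Foxo3 (0.78) were called higher and Tfeb (-0.43) and Foxo1 (-0.73) lower on the log2 scale.

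The genes were also grouped by the transcription factor that other studies have tied to them. Of 12 autophagy genes known to depend on ATF4 or its partner CHOP under amino acid shortage, 7 rose, 3 fell and 2 did not pass (58.3% higher, 25.0% lower, median 0.26). All 12 are among the 36 members, of which 55.6% were higher and 22.2% lower with a median of 0.18, and over all genes tested 35.2% were higher and 35.3% lower with a median of -0.01. Sqstm1, Nbr1, Atg3, Atg12, Atg16l1, Becn1 and Atg5 rose, and Map1lc3b, Atg7 and Atg10 fell. Of 7 genes tied to TFEB, the master regulator of lysosome and autophagy genes, 4 rose and 1 fell (median 0.15): Sqstm1, Uvrag, Vps11 and Vps18 rose, and Map1lc3b fell. Of 9 tied to FOXO3, which drives autophagy genes in muscle, 5 rose and 3 fell (median 0.22), with falls of Map1lc3b, Ulk2 and the mitochondrial receptor Bnip3. Vps11, Vps18 and Bnip3 are named here after their values were seen, and Map1lc3b is on all 3 lists, so they are not separate. The C/EBP-ATF element TGATGNAA and the FOXO element GTAAACA were found in none of the 35 member windows, against 3.45% and 3.17% of all windows. At rates this low, 35 windows are too few to read anything from their absence. Atg12, Atg16l1, Becn1 and Pik3c3 of these lists had no window. The GC box GGGCGG was found in 19 of the 35 member windows, against 32.7% of all windows.

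Gene positions are those of the deposited table (mm10), and 28 of the 36 have the same start and end in GENCODE M21, from which strands were taken. In GENCODE M21, 13 of the 36 share exon bases with another annotated gene, and since the strand setting of the counts is not given in the sources used here, reads in those bases cannot be assigned with certainty. Beside Atg4d, the overlapping partner had more counts than the member for Atg16l2 (Fchsd2, with a mean of 1263 against 680 counts), but the shared stretch was only 25 bases. Sqstm1 shares 580 bases with Mrnip (mean 128 against 4752 counts) and Becn1 1297 bases with Cntd1 (mean 20 against 2377 counts), each on the opposite strand.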

How the data were processed

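RNA-seq libraries were aligned with TopHat2 2.0.6 to mm10, per the submitters' processing notes; which program counted the reads, with which annotation and strand, is not given in the sources used here. The authors deposited raw read counts per gene and FPKM values for 3 PBS and 3 PM2.5 libraries in 1 table. The deposited FPKM equal count, library total and a fixed gene length to within 0.0485% for 12207 genes with over 100 counts. Groups came from the labels. Counts were tested with edgeR 4.0.16 (R 4.3.3; TMM, robust quasi-likelihood fit), after edgeR's filter on low counts (minimum count 10, minimum total 15), which left 12967 of 34745 genes. Benjamini-Hochberg adjustment ran over all of these. Values of both groups are CPM with SD over 3 libraries, and 3 counts, the limit below which a level was not distinguished from 0, are 0.110 to 0.154 CPM; such limits cover counting error only. Intervals of a log2 fold change are at the 95% level. Alternatives were library totals, RLE size factors, DESeq2 1.42.0, no filter on low counts, a filter at 5 CPM, limma 3.58.1 on log2(FPKM + 1) and log2(FPKM + 0.1), a replicate block and leaving out each library. Only the edgeR fit was tested on simulated counts, in which far fewer genes changed than were called in these data. Per-library values are given for the members with the 6 largest rises and falls, the LC3 and GABARAP genes and the cargo receptors, and for a few others chosen later; from each list of other autophagy genes, the 4 with the smallest adjusted p and at least 5 CPM are named. The members and lists were chosen with earlier results of these data known. Retreg1, Retreg2 and Retreg3 were matched by older symbols and Rubcn by gene ID. Promoter sequences are from RefSeq (GRCm38.p6) and exons from GENCODE M21.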

Additional observations from a re-analysis of the deposited data

How the results depend on the processing

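None of the 28 called members changed sign under any of the 14 alternatives in which it could be tested, and 21 of them kept their call in all. Of the 8 that did not pass, 5 changed sign between alternatives: Atg16l2 (log2 fold change -0.04 to 0.08), Atg4c (-0.15 to 0.20), Gabarapl1 (-0.06 to 0.03), Gabarapl2 (-0.07 to 0.03) and Wipi1 (-0.10 to 0.01). Between 16 and 20 members were called higher over these settings (16 with limma on either log2 scale of FPKM, 17 with library totals and with the filter at 5 CPM) and between 5 and 9 lower. Leaving out 1 library at a time gave 19 to 20 members higher, 5 to 8 lower, 8777 to 8998 called genes among all tested, and 28 to 31 higher and 17 to 19 lower among the other autophagy genes. The 5 lower calls came without PM2.5 replicate 2, and the cause was not tested. Atg10 and Atg4c had no value with the filter at 5 CPM. A fit with the replicate block called 20 members higher, 8 lower and 9003 genes in all. The same-numbered libraries deviated together with correlations of only 0.01, 0.01 and 0.05. PBS replicate 1 did not correlate best with its own number, while PBS replicates 2 and 3 did. With 3 libraries a group this check cannot decide whether the numbers pair the samples. Libraries of at least 19511561 counts gave the largest standard errors for Atg4c, Atg10 and Map1lc3a, the members with the lowest counts. With 3 libraries a group, small changes such as those of Uvrag, Ambra1, Atg2b, Atg16l1, Atg7 and Atg4a lost their call in some alternatives. So did that of Map1lc3a, which was larger (log2 fold change -0.42) but had an SE of 0.14.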
